A study of Homo sapiens with 6 samples.

Results

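The zinc finger gene cluster labelled 19q13.41 lies on the long arm of human chromosome 19, and 39 of its zinc finger genes were examined here out of 60666 genes listed in each library. The members were chosen by gene symbol as the zinc finger genes of the cluster, and all 39 were found on chromosome 19 between 51804816 and 53580269 of genome build hg38, a stretch of 1.78 Mb. RNA was sequenced from DNMT3B KO cells and from HCT116 cells, with 3 libraries of each. HCT116 is a human colorectal cancer cell line, used untreated and with the genotype WT, and DNMT3B KO is an untreated derivative of the same line in which the gene for the DNA methyltransferase DNMT3B was disrupted. The knockout is a single derived line, so its effect and other differences of that line from its parent cannot be told apart, and the sources used here do not say whether the replicates were separate cultures, so the p-values reflect no more than the spread among these libraries, which may be technical.

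Most genes of the cluster encode KRAB zinc finger proteins, which carry a KRAB domain followed by an array of C2H2 zinc fingers. The fingers bind DNA, often within transposable elements, and the KRAB domain recruits TRIM28 (also called KAP1), which brings in the H3K9 methyltransferase SETDB1, HP1 proteins and histone deacetylases to form heterochromatin. The family grew through repeated tandem duplication, so neighbouring genes are often close relatives with similar promoters. DNMT3B is a de novo DNA methyltransferase, and the bodies of zinc finger genes on chromosome 19 are known for carrying H3K9me3.

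The promoters are shown first because silenced and expressed members stood side by side in the cluster and some of them carried similar promoters. RefSeq promoter windows (GRCh38.p14, 250 bases before to 50 bases after the start of a gene) matched 31 of the 39 members. ZNF649, ZNF480, ZNF610, ZNF600, ZNF28, ZNF888, ZNF702P and ZNF665 had no window in the table used. Where a member had several windows (8 members), the one nearest to the start of its canonical GENCODE transcript was taken. For ZNF83 that window lay 1269 bases from this start and 52.2 kb inside the annotated span of the gene, and another window lies at the outer end of the span. For ZNF331 it lay 838 bases from this start and 17.8 kb inside the span. The windows of ZNF432, ZNF701 and ZNF765 lay at this start, yet 46.9, 14.5 and 5.36 kb inside the span. Those of the silenced ZNF577 and ZNF614 also lay at this start, 3.00 and 1.86 kb inside the span. Below, each window reads 5′ to 3′ on the strand of the gene, and capitals mark CG dinucleotides, the usual site of DNA methylation.

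The windows of 4 members that were silenced in DNMT3B KO cells, those with the highest mean level among the silenced members with a window, were at chr19:52857570-52857869 (minus strand), chr19:52638306-52638605 (minus strand), chr19:53365455-53365754 (plus strand) and chr19:52028330-52028629 (minus strand).
ZNF468: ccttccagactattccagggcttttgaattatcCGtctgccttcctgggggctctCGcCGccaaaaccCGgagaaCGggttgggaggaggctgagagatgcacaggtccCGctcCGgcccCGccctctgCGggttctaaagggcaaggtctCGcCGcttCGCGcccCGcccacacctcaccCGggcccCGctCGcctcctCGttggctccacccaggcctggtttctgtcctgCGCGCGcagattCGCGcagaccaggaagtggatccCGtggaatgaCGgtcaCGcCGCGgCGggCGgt
ZNF83: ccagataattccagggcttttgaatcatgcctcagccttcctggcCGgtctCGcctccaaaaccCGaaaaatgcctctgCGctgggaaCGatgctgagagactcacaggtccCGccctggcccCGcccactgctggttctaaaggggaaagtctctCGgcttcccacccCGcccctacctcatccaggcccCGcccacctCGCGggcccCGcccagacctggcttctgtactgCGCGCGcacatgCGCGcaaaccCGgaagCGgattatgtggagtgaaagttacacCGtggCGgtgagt
ZNF525: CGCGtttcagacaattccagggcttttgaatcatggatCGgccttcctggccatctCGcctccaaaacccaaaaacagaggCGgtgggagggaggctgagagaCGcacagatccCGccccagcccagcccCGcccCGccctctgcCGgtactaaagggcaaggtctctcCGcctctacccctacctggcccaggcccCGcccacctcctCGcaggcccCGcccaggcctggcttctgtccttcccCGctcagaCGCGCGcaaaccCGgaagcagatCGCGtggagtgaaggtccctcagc
ZNF614: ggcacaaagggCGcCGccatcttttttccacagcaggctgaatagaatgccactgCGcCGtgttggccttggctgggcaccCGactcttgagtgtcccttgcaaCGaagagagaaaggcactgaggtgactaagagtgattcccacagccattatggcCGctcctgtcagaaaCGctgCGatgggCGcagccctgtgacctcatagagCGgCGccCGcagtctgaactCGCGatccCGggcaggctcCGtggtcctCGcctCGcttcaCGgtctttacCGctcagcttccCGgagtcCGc

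The windows of 4 members expressed in both cell lines, chosen by level in the same way, were at chr19:52269337-52269636 (plus strand), chr19:53103373-53103672 (minus strand), chr19:53431734-53432033 (plus strand) and chr19:52139889-52140188 (minus strand).
ZNF766: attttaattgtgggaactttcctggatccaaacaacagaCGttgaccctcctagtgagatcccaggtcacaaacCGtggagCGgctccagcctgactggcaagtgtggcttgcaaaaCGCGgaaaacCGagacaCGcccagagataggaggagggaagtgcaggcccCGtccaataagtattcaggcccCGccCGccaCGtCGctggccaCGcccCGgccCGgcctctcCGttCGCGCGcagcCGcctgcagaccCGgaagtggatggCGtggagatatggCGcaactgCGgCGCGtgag
ZNF160: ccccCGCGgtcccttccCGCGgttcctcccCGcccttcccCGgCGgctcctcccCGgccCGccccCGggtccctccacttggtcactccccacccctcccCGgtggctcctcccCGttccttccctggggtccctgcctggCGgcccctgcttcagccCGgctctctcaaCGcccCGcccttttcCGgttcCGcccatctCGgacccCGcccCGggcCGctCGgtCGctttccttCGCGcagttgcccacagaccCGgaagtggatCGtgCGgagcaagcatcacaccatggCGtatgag
ZNF761: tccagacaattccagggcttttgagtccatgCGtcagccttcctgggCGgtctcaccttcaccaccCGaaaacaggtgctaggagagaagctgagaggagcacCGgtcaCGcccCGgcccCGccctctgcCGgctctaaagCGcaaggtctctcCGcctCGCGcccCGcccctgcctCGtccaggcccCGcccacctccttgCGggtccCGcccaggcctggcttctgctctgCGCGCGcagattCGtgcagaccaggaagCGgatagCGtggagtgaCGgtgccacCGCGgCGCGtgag
ZNF616: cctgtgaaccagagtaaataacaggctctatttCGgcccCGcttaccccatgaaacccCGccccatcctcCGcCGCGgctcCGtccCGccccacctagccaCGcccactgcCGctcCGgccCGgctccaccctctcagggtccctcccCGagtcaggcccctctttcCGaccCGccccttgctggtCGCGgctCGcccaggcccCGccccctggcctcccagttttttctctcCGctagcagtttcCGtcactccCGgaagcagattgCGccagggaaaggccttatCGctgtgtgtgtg

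The most similar pair of windows among the 465 pairs compared joined a silenced member, ZNF808, with a member expressed in both lines, ZNF611. The 2 windows, at chr19:52527418-52527717 (plus strand) and chr19:52734995-52735294 (minus strand), shared 261 identical bases in an alignment with free end gaps, or 87.0% of the window, and held 29 and 26 CG dinucleotides. This pair was chosen after its values were seen.
ZNF808: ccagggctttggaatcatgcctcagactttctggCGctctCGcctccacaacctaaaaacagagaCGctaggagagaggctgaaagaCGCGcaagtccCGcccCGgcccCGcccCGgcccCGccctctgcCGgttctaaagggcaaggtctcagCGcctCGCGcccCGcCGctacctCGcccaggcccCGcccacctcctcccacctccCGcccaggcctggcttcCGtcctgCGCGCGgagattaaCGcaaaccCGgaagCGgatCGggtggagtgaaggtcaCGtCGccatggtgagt
ZNF611: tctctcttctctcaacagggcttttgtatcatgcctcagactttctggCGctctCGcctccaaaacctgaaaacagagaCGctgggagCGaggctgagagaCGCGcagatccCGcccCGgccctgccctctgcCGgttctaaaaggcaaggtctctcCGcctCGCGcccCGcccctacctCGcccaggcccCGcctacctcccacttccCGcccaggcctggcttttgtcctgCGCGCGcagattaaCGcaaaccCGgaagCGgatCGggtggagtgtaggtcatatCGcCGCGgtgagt

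The summed estimated counts were 67624429, 56277217 and 64536205 in the DNMT3B KO libraries, against 68274783, 64898370 and 55436267 in the HCT116 libraries, and levels are given as CPM, the counts of a gene scaled to a common library total, normalized with edgeR's TMM factors. A single count equalled 0.0139 to 0.0198 CPM, depending on the library. Correlations of log2 CPM between replicates were 0.990 to 0.991 in DNMT3B KO cells and 0.975 to 0.987 in HCT116 cells. DNMT3B itself stood at 2.54, 2.87 and 2.83 CPM in the DNMT3B KO libraries, against 38.5, 30.1 and 39.5 CPM in the HCT116 libraries, which matched the labels. The 6 epithelial markers summed to 1776 to 1973 CPM in DNMT3B KO and 3320 to 4504 CPM in HCT116. EPCAM and CDX2 were not called, CDH1 (log2 fold change -1.70), KRT18 (-1.15) and KRT8 (-1.12) were lower in DNMT3B KO, and VIL1 was higher, at 0.555 to 1.84 CPM in DNMT3B KO and 0.0628 to 0.0992 CPM in HCT116. The 10 markers of other cell types summed to 28.9 to 37.9 CPM in DNMT3B KO and 16.05 to 34.7 CPM in HCT116, mostly from COL1A1 and CD68. Of the 5 that could be tested, 2 were higher in DNMT3B KO at low levels, PTPRC (0.236 to 0.335 CPM in DNMT3B KO, 0 to 0.0157 CPM in HCT116) and GFAP (0.305 to 0.686 CPM in DNMT3B KO, 0 to 0.159 CPM in HCT116). HBB and SOX10 were at 0 in the DNMT3B KO libraries, and the part of these marker differences in the results on the cluster was not tested. In bulk RNA, fewer cells that express a gene and less RNA per cell cannot be told apart.

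To determine how the cluster responded to the loss of DNMT3B, each member was tested in edgeR (quasi-likelihood F test), with p-values adjusted by the Benjamini-Hochberg method over all 16959 genes that passed the filter on low counts. Of the 39 members, 26 passed the filter, 17 were lower in DNMT3B KO, 2 were higher and 7 were not called. Those that were silenced, as defined below, and ZNF432 passed the filter through their HCT116 level alone, so the shares of tested members are given as a description. Of the tested members 73.1% were called, where 28.1% of all tested genes were called. Lower calls made up 65.4% of the tested members, where 15.1% of all tested genes were lower, and higher calls made up 7.69%, where 12.9% of all tested genes were higher.

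The loss was close to complete in most of the lower members. A gene was counted as silenced when it was called, averaged at least 1 CPM in HCT116 and averaged less than 0.1 CPM in DNMT3B KO. By this measure 15 members were silenced, 57.7% of those tested, while 0.761% of all tested genes were silenced. None of the members went the other way, while 43 genes did so among all those tested. The remaining members were either expressed at 1 CPM or more in both lines (10 members) or low in both (14 members, of which 1 was tested). All 3 libraries of DNMT3B KO lay outside the range of the HCT116 libraries in 21 of the 26 tested members, 19 below and 2 above, and such separation held for 45.9% of all tested genes.

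**Figure D1:**
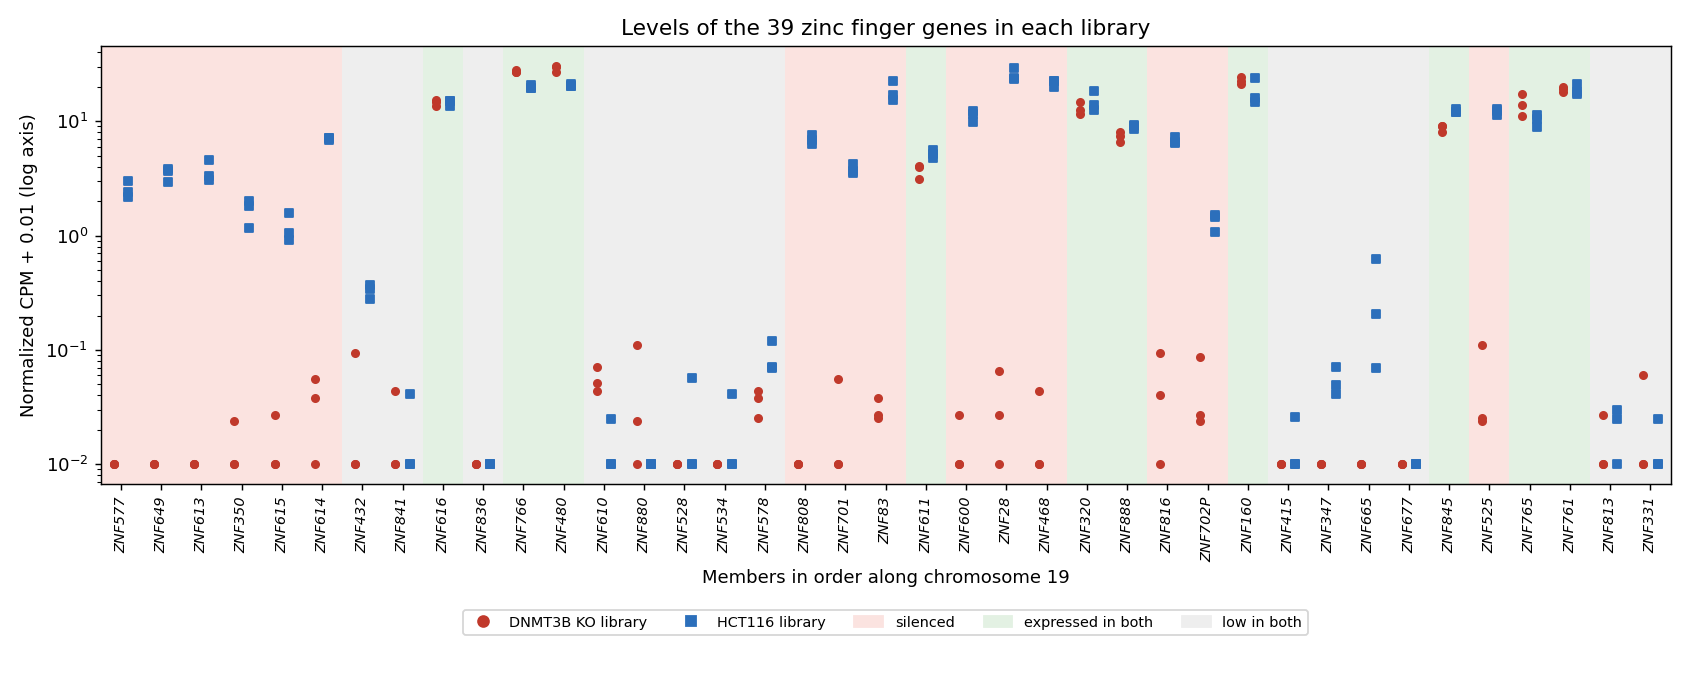
Normalized CPM + 0.01 (log axis) of the 39 members in each library, in order along chromosome 19, with circles for the 3 DNMT3B KO libraries to the left of squares for the 3 HCT116 libraries and shading by state. The 15 silenced members fall into several separate stretches, and the 10 members expressed in both lines, of which ZNF765 and ZNF761 lie beyond the last of these stretches, keep levels above 3 CPM in every library.

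The first 6 genes of the cluster, from ZNF577 to ZNF614, were all silenced and spanned 225 kb. ZNF577 (chr19:51804816-51890950, minus strand) was at 0 in all DNMT3B KO libraries, against 3.01, 2.18 and 2.40 CPM in the HCT116 libraries. For ZNF649 (chr19:51889235-51905040, minus strand) the DNMT3B KO libraries likewise held no count, against 3.69, 2.95 and 3.81 CPM in HCT116. ZNF577 and ZNF649 share 118 exonic bases on one strand, so their reads cannot be fully separated. ZNF613 (chr19:51927147-51948759, plus strand), on the opposite strand, had no reads in the DNMT3B KO libraries, against 4.55, 3.08 and 3.29 CPM in HCT116. Taking 3 counts in each DNMT3B KO library as the floor, ZNF577 was at least 55.2-fold lower in DNMT3B KO, ZNF649 at least 75.9-fold and ZNF613 at least 79.3-fold (adjusted p = 0.000113, 6.93e-05 and 9.09e-05, edgeR).

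ZNF350, also called ZBRK1, encodes a KRAB repressor known to bind BRCA1. ZNF350 (chr19:51964340-51986856, minus strand) had 0.0139, 0 and 0 CPM in DNMT3B KO, against 1.16, 1.81 and 2.004 CPM in HCT116. ZNF615 (chr19:51991332-52008230, minus strand) had 0, 0.0168 and 0 CPM in DNMT3B KO, against 1.58, 1.04 and 0.912 CPM in HCT116. Each of them kept a single count over the DNMT3B KO libraries, which came to 0.312% of the HCT116 level for ZNF350 (exact 95% interval 0.00788% to 1.75%) and 0.421% for ZNF615 (0.0106% to 2.37%). ZNF614 (chr19:52012765-52030240, minus strand), the last gene of the stretch, had 0.0277, 0 and 0.0457 CPM in DNMT3B KO, against 7.20, 7.08 and 6.84 CPM in HCT116 (log2 fold change -8.02 ± 0.44 SE, adjusted p = 1.26e-05, edgeR). Its 5 counts left 0.359% of the HCT116 level. Intervals and floors of this kind cover counting error at most. The intervals pool the 3 libraries of each line and leave out the spread between them. The counts are rounded estimates, and PCR copies of a molecule could not be told from separate molecules, so the intervals may be too narrow.

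The second silenced stretch held ZNF808, ZNF701 and ZNF83 over 163 kb. ZNF808, loss of which in humans is known to cause pancreatic agenesis and which represses MER11 elements, had no count in DNMT3B KO and 6.31, 6.91 and 7.62 CPM in the HCT116 libraries (chr19:52527652-52564464, plus strand), at least 151-fold lower in DNMT3B KO (adjusted p = 2.38e-05, edgeR). ZNF701 (chr19:52555822-52587174, plus strand) had 0, 0 and 0.0457 CPM in DNMT3B KO, against 3.64, 4.19 and 3.55 CPM in HCT116. ZNF83 (chr19:52594060-52690559, minus strand) had 0.0277, 0.0168 and 0.0152 CPM in DNMT3B KO, against 16.98, 22.6 and 15.3 CPM in HCT116 (log2 fold change -9.68 ± 0.32 SE, adjusted p = 1.04e-06, edgeR). In all 3 genes every DNMT3B KO library lay below every HCT116 library. The share of the HCT116 level that remained was 0.399% for ZNF701 (exact 95% interval 0.0820% to 1.17%) and 0.110% for ZNF83 (0.0298% to 0.281%). ZNF808 and ZNF701 share 229 exonic bases on one strand.

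The third stretch spanned 108 kb and held ZNF600, ZNF28 and ZNF468. ZNF600 (chr19:52749942-52786807, minus strand) had 0, 0.0168 and 0 CPM in DNMT3B KO, against 11.6, 12.2 and 9.86 CPM in HCT116. ZNF28 (chr19:52797408-52857600, minus strand) had 0.0555, 0.0168 and 0 CPM in DNMT3B KO, against 23.9, 23.3 and 29.1 CPM in HCT116. ZNF468 (chr19:52838010-52857649, minus strand), whose exons share 29 bases with ZNF28, had 0, 0.0335 and 0 CPM in DNMT3B KO, against 22.3, 20.1 and 22.4 CPM in HCT116. No more than a few reads of these genes were left. The remaining share was 0.0447% for ZNF600 (exact 95% interval 0.00113% to 0.249%), 0.101% for ZNF28 (0.0327% to 0.235%) and 0.0471% for ZNF468 (0.00570% to 0.170%). The log2 fold change of ZNF28 was -9.87 ± 0.39 SE, adjusted p = 2.37e-06, edgeR.

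ZNF816 and the pseudogene ZNF702P formed a further silenced stretch, and ZNF525 stood alone further along. ZNF816 (chr19:52949379-52962911, minus strand) had 0, 0.0839 and 0.0305 CPM in DNMT3B KO, against 6.47, 7.33 and 6.59 CPM in HCT116 (log2 fold change -7.49 ± 0.55 SE, adjusted p = 5.43e-05, edgeR). ZNF702P (chr19:52966896-53037898, minus strand), a transcribed processed pseudogene, had 0.0139, 0.0168 and 0.0762 CPM in DNMT3B KO, against 1.43, 1.51 and 1.07 CPM in HCT116 (log2 fold change -5.16 ± 0.55 SE, adjusted p = 0.000333, edgeR). With 2.61% of its HCT116 level (exact 95% interval 1.04% to 5.47%), ZNF702P kept the largest share among the silenced members. ZNF525 (chr19:53365693-53392217, plus strand) had 0.0139, 0.101 and 0.0152 CPM in DNMT3B KO, against 12.4, 12.9 and 11.3 CPM in HCT116 (log2 fold change -8.15 ± 0.44 SE, adjusted p = 1.20e-05, edgeR). The DNMT3B KO libraries lay below the HCT116 libraries in each of these genes. Over all 15 silenced members the adjusted p ran from 1.04e-06 (ZNF83) to 0.000333 (ZNF702P) in edgeR, and the largest number of counts in a single DNMT3B KO library was 6.

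Summed over the silenced members, the level was 0.153, 0.302 and 0.229 CPM in the DNMT3B KO libraries, against 126, 129 and 126 CPM in the HCT116 libraries. The DNMT3B KO sum was therefore 0.179% of the HCT116 sum, while these genes had supplied 46.8% of the summed CPM of all members in HCT116. Because the silenced members were defined by these same levels, a low DNMT3B KO sum had to follow, and the sums only describe its size. The members expressed in both lines summed to 151, 169 and 160 CPM in DNMT3B KO, against 142, 151 and 139 CPM in HCT116, where HCT116 replicate 2 reached the level of DNMT3B KO replicate 1. As a whole the 39 genes stood at 160 ± 9.18 CPM in DNMT3B KO and 272 ± 8.41 CPM in HCT116 (SD, n = 3 each). The median log2 fold change of the 26 tested members was -7.44, and -6.02 with the 4 genes without DNMT3B KO counts placed at their bounds, against -0.00063 for all tested genes. Because the filter kept members that were high in HCT116 alone, the median depended on it, and with no filter it was -3.21 over 37 members.

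Of the 10 members expressed in both cell lines, 2 were higher, 1 was lower and 7 were not called, a share close to the 28.1% called among all tested genes. The higher pair, ZNF766 and ZNF480, lie 1.12 kb apart on the same strand. ZNF766 (chr19:52269587-52296046, plus strand) had 26.8, 26.8 and 28.1 CPM in DNMT3B KO, against 19.6, 19.6 and 20.6 CPM in HCT116 (log2 fold change 0.45 ± 0.09 SE, adjusted p = 0.00766, edgeR). ZNF480 (chr19:52297169-52325922, plus strand) had 27.1, 30.1 and 30.5 CPM in DNMT3B KO, against 21.4, 20.5 and 20.3 CPM in HCT116 (log2 fold change 0.50 ± 0.09 SE, adjusted p = 0.00626, edgeR). Every DNMT3B KO library exceeded every HCT116 library in both genes, by 1.37-fold and 1.41-fold on average. ZNF845 (chr19:53333749-53356906, plus strand) was lower, with 7.99, 9.09 and 9.03 CPM in DNMT3B KO, against 12.9, 12.2 and 12.1 CPM in HCT116 (log2 fold change -0.51 ± 0.13 SE, adjusted p = 0.0193, edgeR). The groups did not overlap, but the call was lost without HCT116 replicate 1 (adjusted p = 0.0844, edgeR) and without DNMT3B KO replicate 1, 2 or 3 (adjusted p = 0.0845, 0.0568 and 0.0569).

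**Figure D2:**
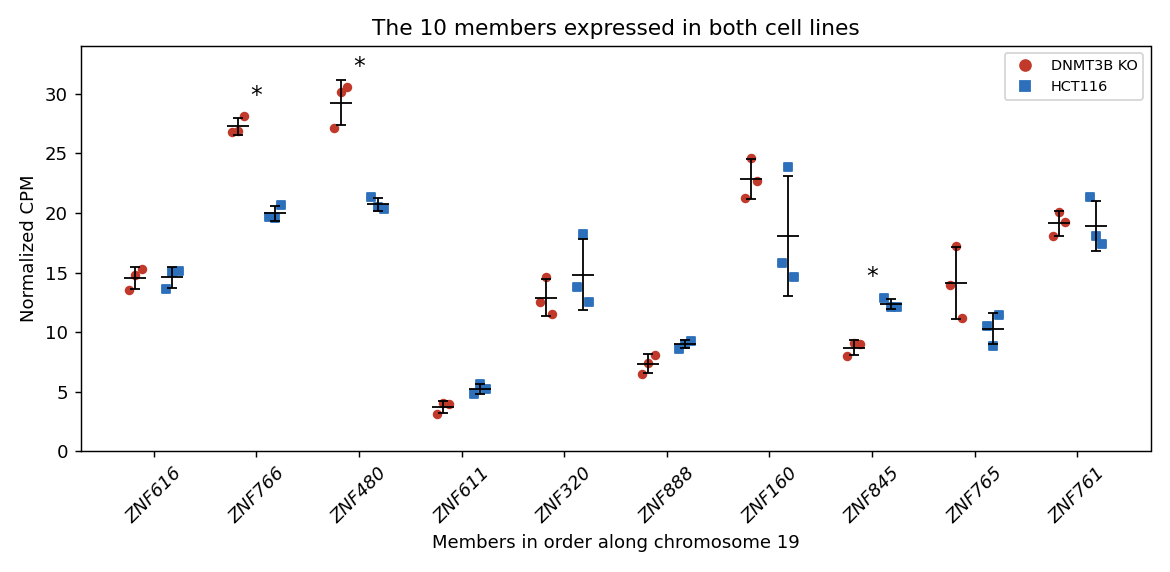
Normalized CPM (linear axis from 0) of the 10 members expressed in both lines, with DNMT3B KO circles to the left of HCT116 squares, 1 point per library, horizontal ticks at the means and error bars of 1 SD (n = 3 each). Asterisks mark the 3 members called by edgeR, ZNF766 and ZNF480 higher and ZNF845 lower in DNMT3B KO.

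The 7 uncalled members had log2 fold changes between -0.49 and 0.46. ZNF616 (chr19:52113091-52139938, minus strand) averaged 14.5 ± 0.892 CPM in DNMT3B KO and 14.6 ± 0.864 CPM in HCT116 (SD, n = 3 each, log2 fold change -0.01 ± 0.12 SE). ZNF761 (chr19:53431984-53461862, plus strand) averaged 19.1 ± 1.05 CPM in DNMT3B KO and 18.9 ± 2.08 CPM in HCT116 (SD, n = 3 each). These means differed by less than the spread between replicates. ZNF611 (chr19:52702813-52735073, minus strand), known to bind SVA elements, averaged 3.72 ± 0.536 CPM in DNMT3B KO and 5.21 ± 0.409 CPM in HCT116 (SD, n = 3 each). Its groups did not overlap, and it missed the threshold in edgeR (adjusted p = 0.0850) while DESeq2 called it (adjusted p = 0.0381). ZNF888 (chr19:52904415-52923470, minus strand) averaged 7.35 ± 0.783 CPM in DNMT3B KO and 8.97 ± 0.332 CPM in HCT116 (SD, n = 3 each), again without overlap (adjusted p = 0.175, edgeR).

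ZNF320 (chr19:52860851-52897693, minus strand) averaged 12.9 ± 1.59 CPM in DNMT3B KO and 14.8 ± 3.00 CPM in HCT116 (SD, n = 3 each), with overlapping groups. ZNF765 (chr19:53389793-53430413, plus strand) averaged 14.1 ± 3.04 CPM in DNMT3B KO and 10.3 ± 1.31 CPM in HCT116 (SD, n = 3 each), with DNMT3B KO replicate 3 inside the HCT116 range. ZNF160, known as a KRAB repressor of TLR4 in intestinal epithelial cells, had 21.2, 24.6 and 22.7 CPM in DNMT3B KO, against 15.8, 23.9 and 14.6 CPM in HCT116 (chr19:53066606-53103434, minus strand). A single library, HCT116 replicate 2, stood high and overlapped the DNMT3B KO range. With all libraries ZNF160 was not called (adjusted p = 0.224, edgeR), and without HCT116 replicate 2 it was higher in DNMT3B KO (log2 fold change 0.57, adjusted p = 0.00516).

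The 14 members low in both lines never exceeded 0.101 CPM in a DNMT3B KO library or 0.612 CPM in an HCT116 library. ZNF432, known to bind poly(ADP-ribose) in DNA repair, was the only one to pass the filter. ZNF432 (chr19:52031378-52095738, minus strand) was lower, with 0.0832, 0 and 0 CPM in DNMT3B KO, against 0.271, 0.330 and 0.357 CPM in HCT116 (log2 fold change -3.33 ± 0.86 SE, adjusted p = 0.0228, edgeR). Those levels stood on 6 counts in DNMT3B KO and 57 in HCT116, and the call was lost without HCT116 replicate 1 (adjusted p = 0.0593, edgeR), without DNMT3B KO replicate 2 or 3 (0.0776 and 0.0761), and with the replicate block (0.0511). All 6 DNMT3B KO counts came from replicate 1, and without that library the fitted log2 fold change was -7.29 (adjusted p = 0.00588). ZNF665 (chr19:53159213-53193386, minus strand), left out by the filter, had no DNMT3B KO count, against 0.196, 0.612 and 0.0595 CPM in HCT116. It was called lower with no filter (adjusted p = 0.00112, edgeR), in DESeq2 (0.000387) and without HCT116 replicate 3 (0.00406), but not when a DNMT3B KO library was left out (0.0551 to 0.0569). ZNF347 (chr19:53124072-53159075, minus strand) had no DNMT3B KO count and 8 counts in HCT116, and ZNF578 (chr19:52453553-52516882, plus strand) had 5 counts in DNMT3B KO and 14 in HCT116.

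The reverse leaning was seen in ZNF610 (chr19:52336243-52367778, plus strand), with 9 counts in DNMT3B KO and 1 in HCT116, and in ZNF880 (chr19:52369917-52385795, plus strand), with 7 counts in DNMT3B KO, of which 6 were in replicate 2 and 0 in replicate 3, and 0 in HCT116. The filter left both out, and with no filter neither was called (adjusted p = 0.212 and 0.184, edgeR). ZNF841 (chr19:52064465-52095765, minus strand), ZNF528 (chr19:52397849-52418412, plus strand), ZNF534 (chr19:52429148-52452315, plus strand), ZNF415 (chr19:53107879-53133077, minus strand), ZNF813 (chr19:53467733-53496255, plus strand) and ZNF331 (chr19:53519527-53580269, plus strand), an imprinted gene, had between 0 and 3 counts in either line. ZNF836 (chr19:52153864-52171643, minus strand) and ZNF677 (chr19:53235381-53254898, minus strand) had none in any library.

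The silenced members did not form one block. Along the chromosome the 39 genes fell into 17 alternating stretches of silenced, expressed and low genes, and a silenced member had an expressed member as its direct neighbour in 7 places. The closest of these pairs without overlapping spans was ZNF468, silenced, and ZNF320, expressed in both lines, which lie 3.20 kb apart on the same strand. ZNF611, expressed in both lines, stood 12.3 kb from ZNF83 and 14.9 kb from ZNF600, both of which were silenced. ZNF525 was silenced between ZNF845, 8.79 kb away, and ZNF765, whose annotated span overlaps that of ZNF525 by 2.43 kb on the same strand, and both of these neighbours were expressed.

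Few genes between the members were detected. The annotation places 63 other genes in the interval, of which 22 had a count in any library and 8 were tested, with 4 lower in DNMT3B KO and 0 higher. AC074141.1, a pseudogene overlapping exons of ZNF577 on the same strand, was at 0 in DNMT3B KO, against 0.572, 0.283 and 0.476 CPM in HCT116. AC022150.4, which shares 337 exonic bases with ZNF83 on the same strand, had 0.0416, 0 and 0.0152 CPM in DNMT3B KO, against 3.43, 1.99 and 3.59 CPM in HCT116, and was itself silenced. The read-through gene ZNF816-ZNF321P, which shares 312 exonic bases with ZNF816, was at 0 in DNMT3B KO, against 0.677, 0.377 and 0.655 CPM in HCT116. These 3 overlap silenced members, and reads could have been divided between them and the members. The pseudogene ZNF137P was also lower, at 0 in DNMT3B KO, against 0.873, 1.37 and 0.357 CPM in HCT116. Its annotated span overlaps that of the silenced ZNF83 on the opposite strand.

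PPP2R1A, the scaffold subunit of protein phosphatase 2A and the one abundant gene of the interval that is not a zinc finger gene, was singled out after its values were seen. It had 293, 308 and 293 CPM in DNMT3B KO, against 312, 303 and 350 CPM in HCT116 (log2 fold change -0.11 ± 0.09 SE, adjusted p = 0.416, edgeR). Its annotated span overlaps the edge of the span of ZNF836 on the opposite strand and ends before ZNF766. The interval thus held a highly expressed gene whose groups overlapped. Of the 10 tested genes nearest to the cluster on its centromeric side 2 were higher, 1 was lower and 0 were silenced, and on the telomeric side 1 was higher, 2 were lower and 0 were silenced.

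The share of silenced genes was also counted for zinc finger genes elsewhere, and the differences between these shares were not tested. Among tested genes at 1 CPM or more in HCT116, 15 of 25 members were silenced (60.0%), against 14 of 126 other genes with a ZNF symbol on chromosome 19 (11.1%), 7 of 225 on other chromosomes (3.11%) and 129 of 13310 genes in all (0.969%). The cluster thus held 11.6% of all silenced genes. Changes of the other ZNF genes of chromosome 19 were divided between the directions. Of 141 tested, 32 were higher (22.7%) and 33 lower (23.4%), with a median log2 fold change of 0.12. Of all tested genes, 12.9% were higher and 15.1% lower. These 141 genes include the pseudogenes ZNF137P, called lower, and ZNF321P, not called, which lie between members of the cluster. When HCT116 replicate 1 was left out the higher genes numbered 15, and leaving out a DNMT3B KO library gave 16 (replicate 1), 16 (replicate 2) or 20 (replicate 3). In these same fits the calls over all genes also fell, from 4761 to between 3049 and 3148.

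The states were then described by further features of the genes. The HCT116 level per kilobase of exon, which allows comparison between genes but rests on the same CPM values as the states, had a median of 1.25 CPM per kb in silenced members (range 0.177 to 4.26), 2.07 in members expressed in both lines (0.728 to 4.28) and 0.0017 in low members. The ranges of silenced and expressed members largely overlapped. The silenced members lay on the plus strand in 4 cases and on the minus strand in 11, and the expressed members in 5 and 5. The encoded proteins held 7 to 23 zinc fingers in silenced members (median 11.5), 8 to 26 in expressed members (median 15.5) and 8 to 24 in low members (median 13.5).

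Promoters of the cluster were rich in CG. A window held 17 to 30 CG dinucleotides in silenced members (median 23, 11 windows), 21 to 30 in members expressed in both lines (median 26, 8 windows) and 5 to 30 in low members (median 21.5, 12 windows). The window with 5 was that of ZNF331, which lay inside its span. CG reads the same on both strands, and in 35116 RefSeq windows of the same length the median was 14. At least 15 CG were found in 29 of 31 member windows and in 48.9% of all windows. The observed over expected CG ratio had medians of 0.827 in silenced, 0.839 in expressed and 0.855 in low members, against 0.579 over all windows. Among the windows printed above by level, those of ZNF468, silenced, and ZNF160, expressed in both lines, each held 30. The other silenced members printed there held 22 (ZNF83), 21 (ZNF525) and 23 (ZNF614). The other expressed members held more, with 26 (ZNF766), 28 (ZNF761) and 24 (ZNF616).

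**Figure D3:**
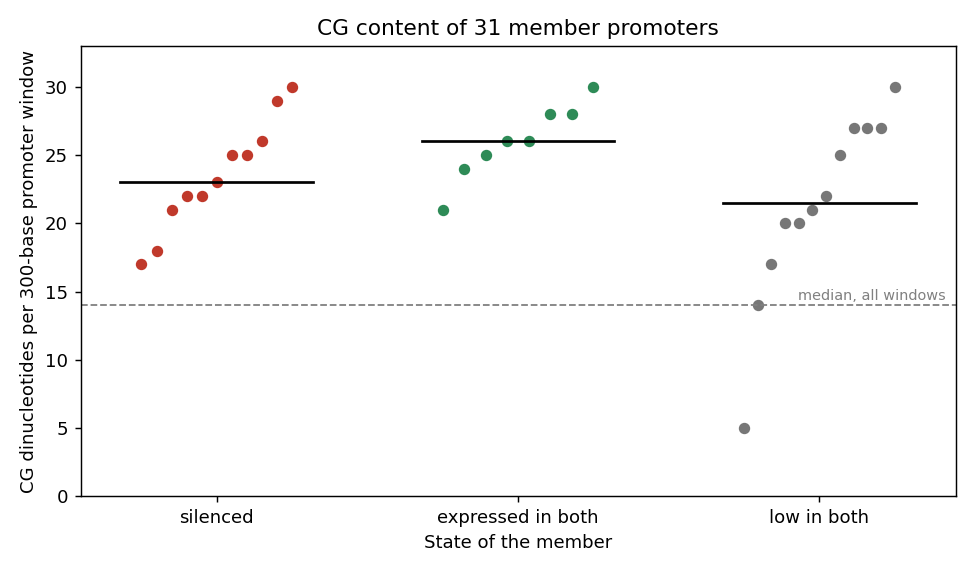
Number of CG dinucleotides in the 300-base RefSeq promoter window of the 31 matched members, 1 point per window sorted within each state, with black lines at the medians and a dashed line at the median of all RefSeq windows (14). The medians were 23 in silenced, 26 in expressed and 21.5 in low members, and the ranges overlapped.

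Closely related promoters were found across the states. Of the 465 pairs of windows, 28 shared at least 80% of the window as identical bases, and these involved 10 members, namely the silenced ZNF808, ZNF701, ZNF83, ZNF468 and ZNF525, the expressed ZNF611, ZNF845, ZNF765 and ZNF761, and the low ZNF813. In 15 of these pairs one gene was silenced and the other expressed, out of 88 such pairs compared. Among pairs of silenced genes 5 of 55 reached 80%, among pairs of expressed genes 5 of 28. Of 96 pairs of an expressed and a low gene 3 did so, each with ZNF813. Mean identity over all pairs was 55.4% of the window for a silenced with an expressed gene, 51.5% among silenced and 65.0% among expressed genes. The medians lay closer together, at 57.7%, 56.3% and 61.0%. The lowest values were 5.00%, 9.67% and 52.7%, and free end gaps let unrelated windows align over few bases, so the means depend on such pairs. ZNF701, silenced, and ZNF845, expressed in both lines, were identical at 86.0% of the window, as were ZNF845 and ZNF765, both expressed. With ZNF83 left out 24 pairs remained, 12 of them between a silenced and an expressed gene. ZNF701 and ZNF765, whose windows also lay inside their spans, were kept in that count, and which starts these cells use was not tested. Pairs share members and a common origin, so they are not independent.

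Similarity between transcripts bears on how reads were assigned. The share of stretches of 50 bases that occurred in no other annotated gene was 83.2% to 99.9% over the members. It was lowest in ZNF808, at 83.2%, where 14.6% of the stretches occurred in another member, and this gene had no count in DNMT3B KO. It was 84.8% in ZNF888, expressed in both lines, so the levels of these genes are less certain than those of ZNF613, ZNF480 or ZNF331, in each of which 99.9% of the stretches were unique.

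Finally, a list of 34 corepressor and heterochromatin genes was examined, all of which were tested. The list joined genes for proteins through which KRAB zinc finger proteins act with other genes of heterochromatin and DNA methylation. In DNMT3B KO 6 were higher, 3 were lower and 25 were not called, with 26.5% called against 28.1% of all tested genes. HDAC1, a histone deacetylase, had 165, 166 and 163 CPM in DNMT3B KO, against 305, 310 and 302 CPM in HCT116 (log2 fold change -0.89 ± 0.08 SE). MTA1, a subunit of the NuRD deacetylase complex, had 74.5, 62.0 and 62.1 CPM in DNMT3B KO, against 115, 117 and 108 CPM in HCT116 (log2 fold change -0.77 ± 0.10 SE). Both were lower without overlap between the groups (adjusted p = 0.000125 and 0.000945, edgeR). The NuRD genes RBBP4 (log2 fold change 0.52), CHD3 (0.39) and MTA2 (0.43) and the HUSH gene MPHOSPH8 (0.32) were higher.

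TRIM28 and SETDB1, named as the central pair of the pathway after their values were seen, differed in their calls. TRIM28 had 806, 903 and 858 CPM in DNMT3B KO, against 890, 742 and 1125 CPM in HCT116, with overlapping groups (adjusted p = 0.662, edgeR). SETDB1 had 47.7, 46.8 and 47.7 CPM in DNMT3B KO, against 61.2, 59.4 and 55.3 CPM in HCT116 (log2 fold change -0.31 ± 0.08 SE, adjusted p = 0.0240, edgeR). The number of higher genes in the list was 2 without HCT116 replicate 1 or without any one of the DNMT3B KO libraries and 10 without HCT116 replicate 3. The lower call of SETDB1 was lost without HCT116 replicate 1 (adjusted p = 0.108, edgeR), when a DNMT3B KO library was left out (0.0823 to 0.0928), with the replicate block (0.0537) and with no filter (0.0574).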

How the data were processed

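The authors prepared stranded mRNA libraries from 3 DNMT3B KO and 3 HCT116 samples, aligned paired-end reads to hg38 with STAR in the nf-core/rnaseq workflow and quantified Ensembl 103 transcripts with Salmon. They deposited estimated counts per gene, scaled for transcript length, so the values need not be whole numbers. Positions and gene types came from GENCODE 44, of the same build, which matched 60437 of 60666 gene IDs, whereas the authors used GENCODE 37.

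The deposited estimated counts were rounded, filtered with filterByExpr and normalized by TMM, which left 16959 genes. These were fitted in edgeR 4.0.16 (R 4.3.3, quasi-likelihood F test) on genotype alone, and Benjamini-Hochberg adjusted p-values under 0.05 were called. Two-sided tests were used throughout. Standard errors of log2 fold changes were derived from F. Simulated counts with changes of known size were used to check the procedure. Alternatives were the Wald test of DESeq2 1.42.0, RLE scaling, other filters, unrounded counts, protein-coding genes only, other thresholds, the replicate block and each library left out. The depth of 55436267 to 68274783 counts per library put the floor of 3 counts at 0.0416 to 0.0595 CPM.

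Members, lists and tests were chosen with earlier results of these data known. All members were named, with library values for called members. Of other genes, DNMT3B, called genes of the interval and the 6 called corepressors with the smallest adjusted p were named, and exceptions are stated. Promoter windows are from RefSeq. They were aligned globally with free end gaps, and similarity is the number of identical bases over 300. Zinc fingers (C, 2 residues, C, 12 residues, H, 3 to 5 residues, H or C) were counted in translations of GENCODE coding sequences, in place of the RefSeq proteins planned. Intervals are exact 95% binomial intervals of DNMT3B KO counts against HCT116 counts, pooled over the libraries of each line and scaled to library size.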

Additional observations from a re-analysis of the deposited data

How the results depend on the processing

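Counts of members called and silenced changed little. In every alternative tried 2 members were higher in DNMT3B KO, except without HCT116 replicate 2, where ZNF160 made 3, and 14 to 19 members were lower. The silenced members numbered 15 with thresholds of 0.2 and 0.5 CPM or with CPM from total counts, and 14 or 15 with a library left out, the 14 without HCT116 replicate 1. The median log2 fold change of tested members was -7.14 in DESeq2. It was -3.21 when low counts were not filtered, where 37 members were tested, -7.78 with at least 1 CPM in 3 libraries, where 23 were tested, and -7.33 without rounding. It ranged from -7.55 to -7.17 with a library left out. Of 334 values over the 26 tested members and these alternatives, 316 kept their direction and side of the threshold, 8 lost the call, 2 gained it and 8 changed sign. Those that changed sign were ZNF616, at 0.0058 with at least 1 CPM in 3 libraries, 0.0102 with protein-coding genes only and -0.0586 to 0.0428 with a library left out, and ZNF761, at -0.0390 to 0.104 with a library left out. Neither was called in any alternative, and the cause was not tested.

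Same-numbered replicates deviated from their group means with correlations of 0.0641, -0.0096 and 0.122, so the numbers were not taken as pairs. With the replicate block, 2 members were higher and 16 lower, the median log2 fold change was -7.45, and 4214 genes were called in place of 4761. All genes called numbered 3049 to 5924 with a library left out, with 3049, 3095, 3109 and 3148 without DNMT3B KO replicate 2 or 3, HCT116 replicate 1 or DNMT3B KO replicate 1. Among the other genes of the interval, 1 was lower with at least 1 CPM in 3 libraries and 2 with protein-coding genes only, in place of 4. The filter left out 13 low members, and 11 of them could be fitted without it, where ZNF665 was called lower.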

Other observations

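Levels of the members expressed in both cell lines differed in a common direction between the DNMT3B KO libraries. Of these 10 members, 8 were lowest in DNMT3B KO replicate 1 and 6 were highest in DNMT3B KO replicate 2, while 31.7% of all tested genes were lowest in replicate 1 and 32.2% were highest in replicate 2. This pattern was noticed in the data and was not tested.

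ZNF321P, a pseudogene downstream of ZNF816 whose read-through transcripts are annotated as a separate gene, had 0.638, 0.352 and 0.488 CPM in DNMT3B KO, against 0.768, 1.21 and 0.912 CPM in HCT116 (adjusted p = 0.0691, edgeR). Its groups did not overlap, yet it kept counts in each DNMT3B KO library while the read-through gene had none there.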
